A study of Mus musculus with 11 samples.

Results

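The 10 genes described here belong to the interleukin 6 family of cytokines and its receptors. They were chosen by symbol, are 10 of the 29809 genes of the matrix, and all 10 were found. They are the ligands Il6, Il11, Lif and Osm, the receptor chains Osmr, Il6st, Il6ra, Il11ra1 and Lifr, and the feedback inhibitor Socs3. The study sequenced single cells of mouse colonic mucosa through damage by dextran sulfate sodium (DSS), a salt in the drinking water that injures the epithelium, and through the repair that follows. WT mice of about 2 months gave 10 libraries, 1 of them uninjured. The other 9 came from mice that drank 3% DSS for 6 days. Counting from the start of exposure, the frozen ones were taken on days 6, 9, 12, 16, 19 and 23 and the fresh ones on days 7, 11 and 18. The remaining pool was of Il10-/- mice with colitis, aged about 10 months, which lack interleukin 10 in all cells and for which the labels give no DSS. Each group is 1 library pooled from several colons (8 mice in the cell table, or 3 mice for days 7, 11 and 18). The myenteric layers were stripped off before digestion and dead cells were removed. Smooth muscle or pericyte markers were highest in the class called myofibroblast (4 of 4). The sources used here do not give a strain.

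Cytokines of this family share the signal transducer gp130, the product of Il6st. Interleukin 6 and interleukin 11 first bind a private receptor, from Il6ra or Il11ra1, and leukaemia inhibitory factor (Lif) and oncostatin M (Osm) bring gp130 together with the Lifr or Osmr chain. Janus kinases on these receptors then phosphorylate STAT3, which moves to the nucleus and switches on genes that include Socs3, an inhibitor that binds gp130 and dampens the signal. In the gut the family is known for links between inflammatory cells, fibroblasts and the repairing epithelium.

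The windows just upstream of a RefSeq start of 4 genes are shown because each holds a letter match to an element of signal-driven transcription. The GENCODE spans given below begin further upstream for Socs3 and Il11, so the windows of these genes lie inside those spans. The Lif window runs past the start of its GENCODE span. A match is a description of letters, not a mapped binding site. The search covered the 250 bases before the start for TTCNNNGAA, the STAT element, and for TGANTCA, the AP-1 element. Each pattern reads the same on both strands, so 1 pass covers both. Of the 10 genes, 9 had an entry in RefSeq (12 starts, build GRCm38.p6), and Osm is named only. Capitals mark the AP-1 match in Il6, Il11 and Lif, which begins 249, 98 and 228 bases before the start, and the STAT match in Socs3, which begins 154 bases before it. Each line reads 5′ to 3′ on the gene's own strand.
Il6, chr5:30012864-30013113, plus strand: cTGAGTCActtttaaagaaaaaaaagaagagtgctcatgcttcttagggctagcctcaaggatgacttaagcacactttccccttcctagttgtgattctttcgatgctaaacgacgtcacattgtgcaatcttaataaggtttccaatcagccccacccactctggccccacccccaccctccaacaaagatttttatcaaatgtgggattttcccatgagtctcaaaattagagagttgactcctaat
Il11, chr7:4778142-4778391, minus strand: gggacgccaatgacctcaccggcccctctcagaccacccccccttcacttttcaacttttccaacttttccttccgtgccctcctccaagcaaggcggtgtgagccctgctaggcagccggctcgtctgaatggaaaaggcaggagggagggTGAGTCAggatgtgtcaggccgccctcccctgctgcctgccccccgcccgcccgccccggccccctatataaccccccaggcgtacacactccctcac
Lif, chr11:4257318-4257567, plus strand: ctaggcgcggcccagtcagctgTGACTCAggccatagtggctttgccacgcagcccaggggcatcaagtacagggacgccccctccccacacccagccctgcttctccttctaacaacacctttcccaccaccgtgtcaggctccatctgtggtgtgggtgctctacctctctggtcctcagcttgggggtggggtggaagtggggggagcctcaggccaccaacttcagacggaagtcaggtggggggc
Socs3, chr11:117969367-117969616, minus strand: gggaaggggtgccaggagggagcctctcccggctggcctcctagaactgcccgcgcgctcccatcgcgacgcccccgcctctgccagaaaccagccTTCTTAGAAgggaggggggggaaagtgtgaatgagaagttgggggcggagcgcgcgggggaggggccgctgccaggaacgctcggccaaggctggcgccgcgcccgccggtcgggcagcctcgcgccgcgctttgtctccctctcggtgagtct
Among 32851 such windows of 27025 genes, 7.02% held the STAT pattern and 6.75% the AP-1 pattern. Il11 has another RefSeq start, and its window held no match; counts of 3′ ends do not tell the starts apart. The windows of Osmr, Il6st, Il6ra, Il11ra1 and Lifr held no match.

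In GENCODE coordinates of the GRCm38 build, Osm (chromosome 11, 4236420 to 4241026) lies next to Lif (chromosome 11, 4257557 to 4272514), both on the plus strand. Osmr (chromosome 15, 6813577 to 6874969, minus strand) and Lifr (chromosome 15, 7090614 to 7197489, plus strand) are near each other as well. Il6 spans 30013114 to 30019981 of chromosome 5, Il11 spans 4772373 to 4782859 of chromosome 7, and Il6st spans 112464070 to 112510086 of chromosome 13. Il6ra lies at 89864059 to 89913196 of chromosome 3 and Socs3 at 117966079 to 117970047 of chromosome 11. Il11ra1 (chromosome 4, 41699989 to 41769474) has a near-identical copy, Il11ra2, at 42656355 to 42661893 of the same chromosome, so its counts are uncertain.

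The libraries held 1820 to 8953 cells each, 55603 in all, and 7922350 to 87012379 UMIs. A UMI, or unique molecular identifier, stands for 1 captured transcript. Levels are UMIs of the gene per 1000000 UMIs (CPM) of all cells of a class in a library, with classes joined from the authors' deposited cell types. Fixed markers were highest in their own class for 6 of 6 fibroblast, 5 of 5 neutrophil, 6 of 7 columnar epithelial, 4 of 5 blood endothelial and 4 of 6 monocyte or macrophage genes. For dendritic cells it was 1 of 4. Days 7, 11 and 18 carry the batch label C and went from tissue to droplets without freezing, while the other 8 libraries were frozen. The batch C cells were deeper, with a median of 4579 to 7810 UMIs against 2116 to 3714. Batch, freezing, number of mice and depth cannot be told apart. Libraries shared at most 41 cell barcodes by pair. The uninjured library held no neutrophil, so levels for that class cover 10 libraries, while its shares of a gene's UMIs include that library as 0%.

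**Figure D1:**
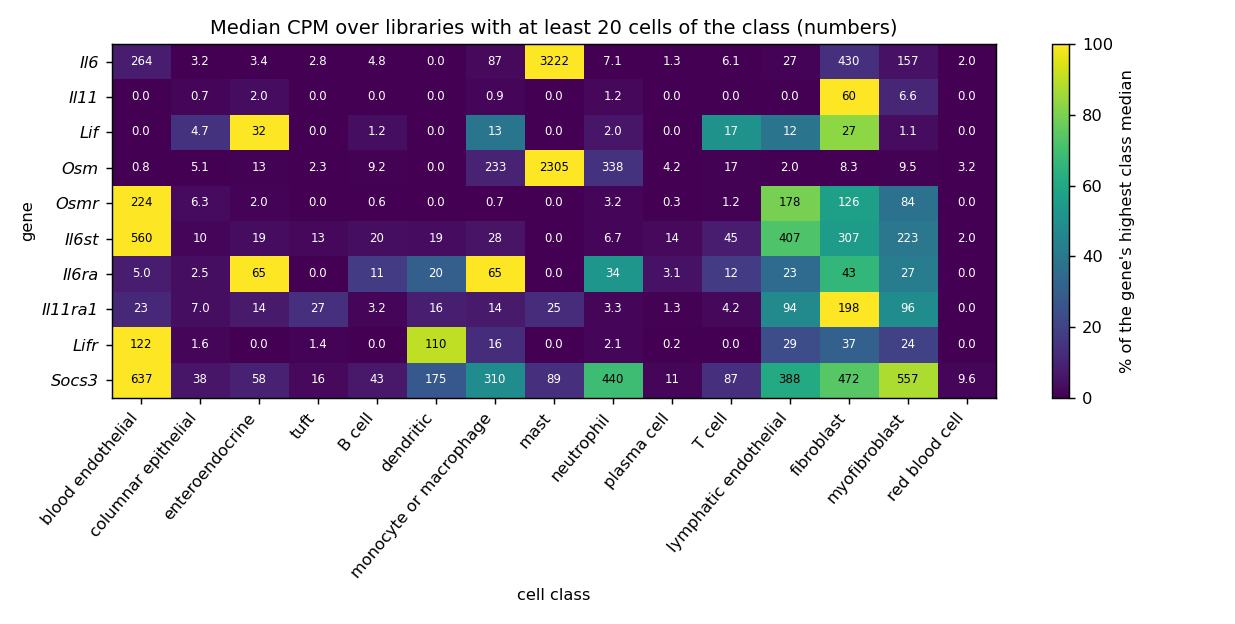
Heat map of the 10 genes (rows) by cell class (columns). Numbers are the median CPM over libraries with at least 20 cells of the class, and colour is the percent of the gene's highest class median. Il11 is bright in fibroblasts, Il6 and Osm in mast cells, with Osm next in neutrophils and in monocytes or macrophages at 338 and 233 CPM, and the receptor chains Osmr, Il6st and Lifr in blood endothelial cells and other stroma; the mast cell column is 1 library and the enteroendocrine and tuft columns 2 libraries each.

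Fibroblasts were the main source of 3 of the 4 ligands, and myeloid cells of Osm. Fibroblasts held 95.2% of all Il11 UMIs, 71.8% of Il6 UMIs and 56.4% of Lif UMIs over the 11 libraries, while neutrophils held 48.8% and monocytes or macrophages 40.5% of Osm UMIs. These totals weigh the deep batch C libraries most. As the median over 11 libraries, monocytes or macrophages held 50.8% of Osm (13.6% to 86.7%) and neutrophils 41.0% (0% to 69.6%). The 86.7% and the 0% are of the uninjured library, which held 15 Osm UMIs and no neutrophil. For Lif the fibroblast share was 45.3% at the median library (14.3% to 87.5%, the highest from 14 of 16 UMIs in the uninjured library). Monocytes or macrophages held 18.3% of Lif there (up to 43.7%) and columnar epithelial cells 16.0% (up to 49.6%). Of the receptor chains, fibroblasts held 63.1% of Osmr, 56.8% of Il6st, 76.6% of Il11ra1 and 44.5% of Lifr UMIs, and blood endothelial cells 15.2%, 18.5% and 24.3% of Osmr, Il6st and Lifr UMIs. For Lifr, monocytes or macrophages held 13.2% of the total, but at the median library they held 28.7% against 15.7% in blood endothelial cells. Il6ra was divided between fibroblasts (29.8%), monocytes or macrophages (28.3%) and neutrophils (25.9%) in total, and at the median library these held 21.2%, 43.1% and 14.1%. These shares depend on how many cells of each class were captured as well as on the level in a cell, and in them the number of cells and the RNA per cell cannot be told apart. The classes were named by the authors from the same counts, so differences between classes describe these cells and carry no test of identity. Adjacent classes in a gene's order of levels were compared within libraries by an exact two-sided sign-flip permutation test on log2(CPM + 1), with Benjamini-Hochberg adjustment over 90 pairs, of which 25 passed 0.05.

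Il11 was a fibroblast transcript in these libraries. In fibroblasts it stood at 6.28 CPM in the uninjured library, at 548, 812, 463 and 411 CPM on days 6, 7, 9 and 11, at 60.1, 23.1, 80.3, 44.6 and 13.2 CPM on days 12, 16, 18, 19 and 23, and at 12.3 CPM in the Il10-/- library. All 9 DSS libraries lay above the uninjured one, and the 4 earliest lay above every later one. Against the uninjured library the ratio was 129 on day 7 (95% counting interval 84.6 to 209) and 1.96 in the Il10-/- library (1.17 to 3.41). Such ratios compare 2 libraries, and their intervals cover counting error only. Myofibroblasts came next, with a median of 6.56 against 60.1 CPM. Fibroblasts were higher in 10 of 11 libraries (adjusted exact permutation p = 0.0126).

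Il11 came from a minority of fibroblasts. A UMI was found in 15.9% of 7731 fibroblasts, against 1.07% of neutrophils, at a median of 5857 and 3128 UMIs per cell. With each cell thinned to 500 UMIs, which 7729 fibroblasts and 12559 of 12565 neutrophils reached, the shares were 5.50% and 0.176%. On day 7 the 5% of fibroblasts with the most Il11 held 65.1% of its UMIs, and 1 cell held 456. On day 6 that top fraction held 89.5%. The columnar epithelial cells, which are the absorptive, secretory and crypt cells, had Il11 at 0.530% to 3.69% of the fibroblast level. Fibroblast markers stood there at 0.233% to 1.24% of theirs, lower than Il11 in 11 of 11 libraries, and the part of RNA from other cells was not tested.

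Lif was spread over more classes than Il11. In fibroblasts it stood at 4.18 CPM in the uninjured library, at 277, 38.5, 162, 41.6, 69.8 and 26.7 CPM on days 6, 7, 9, 11, 12 and 16, at 8.84, 10.4 and 7.10 CPM on days 18, 19 and 23, and at 9.39 CPM in the Il10-/- library. All 9 DSS libraries were above the uninjured one, and 7 of them above the Il10-/- one. The ratio to uninjured was 66.3 on day 6 (95% counting interval 39.0 to 122). Lif was found in 8.24% of fibroblasts (1.48% thinned to 500 UMIs) against 0.379% of blood endothelial cells (0.0219% thinned, median 3911 UMIs).

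By level, T cells had the next highest median of Lif among the well-filled classes; by share of all Lif UMIs they held 6.41%, under columnar epithelial cells (16.1%) and monocytes or macrophages (13.3%). They held Lif at 187 CPM on day 6, from 16 UMIs, and at 8.01 to 34.6 CPM on the other DSS days. None of the 38 T cells in the uninjured library held a Lif UMI, and so few cells do not show that Lif was absent or lower there. Fibroblasts and T cells were not told apart by the paired test (adjusted exact permutation p = 0.253), and T cells exceeded monocytes or macrophages in 10 of 11 libraries (adjusted exact permutation p = 0.0126). Columnar epithelial cells had 1 Lif UMI in the uninjured library, or 0.231 CPM, and 2.17 to 9.59 CPM in the 9 DSS libraries. Their Lif was 2.39% to 53.3% of the fibroblast level, above the fibroblast markers in 11 of 11 libraries. Enteroendocrine cells reached 62.0 CPM on day 7, but only 2 libraries held at least 20 such cells.

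Il6, the founding cytokine of the family, had its highest median levels among the well-filled classes in fibroblasts and blood vessels. In fibroblasts it stood at 86.4 CPM in the uninjured library, at 1573, 354, 917, 279, 805, 594, 118, 430 and 488 CPM on the DSS days in order, from 6 to 23, and at 182 CPM in the Il10-/- library. The 3 batch C libraries held the 3 lowest DSS values, 118 to 354 CPM against 430 to 1573 CPM in the other 6. In blood endothelial cells Il6 was at 89.7 CPM uninjured, at 267, 256, 735, 264, 677, 452, 85.3, 575 and 242 CPM in day order, and at 209 CPM in Il10-/-. Fibroblasts were higher in 8 of 11 libraries, which did not separate them from the endothelium (adjusted exact permutation p = 0.133). By median level, myofibroblasts (157 CPM) and monocytes or macrophages (86.8 CPM) came next. By share of all Il6 UMIs, monocytes or macrophages held 10.5%, above blood endothelial cells at 7.76%. At the median library these shares were 13.5% and 6.66%. The fibroblast ratio to uninjured was 18.2 on day 6 (95% counting interval 16.1 to 20.7). Il6 was detected in 33.7% of fibroblasts, against 1.71% of neutrophils (11.7% and 0.377% thinned to 500 UMIs).

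Mast cells, long-lived granule cells of the mucosa, held both Il6 and Osm. Only 45 were captured, on days 6, 7, 9, 11 and 18 (2, 10, 6, 21 and 6 cells). An Il6 UMI was found in 37 of them, an Osm UMI in 31 and both in 29, and none held Il11 or Lif. Over all of them Il6 was 360 of 164014 UMIs, or 2195 CPM, and Osm was 266 UMIs, or 1622 CPM. A single cell held up to 41 Il6 and 62 Osm UMIs. All 3 mast markers (Cpa3, Kit and Mcpt1) were highest in this class. With 1 library of at least 20 such cells, no spread between libraries can be given.

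Osm was the ligand of neutrophils and of monocytes or macrophages. In neutrophils it stood at 379, 133, 317, 213, 324, 352, 176, 429 and 500 CPM on the DSS days in order, and at 648 CPM in the Il10-/- library, above all 9 DSS libraries. In monocytes or macrophages Osm was at 49.1 CPM uninjured, at 404, 127, 258, 164, 347, 287, 108, 233 and 250 CPM in the same day order, and at 208 CPM in Il10-/-. In both classes the 3 batch C libraries were the lowest of the 9 DSS libraries, at 133 to 213 against 317 to 500 CPM in neutrophils and at 108 to 164 against 233 to 404 CPM in monocytes or macrophages. Neutrophils were higher in 8 of 10 libraries (adjusted exact permutation p = 0.0492), and monocytes or macrophages exceeded T cells in 11 of 11 (adjusted exact permutation p = 0.0110). The ratio of monocytes or macrophages to the uninjured library was 8.22 on day 6 (95% counting interval 4.79 to 15.5) and 4.24 in Il10-/- (2.47 to 8.00). Osm was found in 34.8% of neutrophils and 38.4% of monocytes or macrophages, against 4.15% of columnar epithelial cells at a median of 5974 UMIs; thinned to 500 UMIs the shares were 11.0%, 11.8% and 0.291%. In fibroblasts Osm was at 0.609% to 8.38% of the neutrophil level, where neutrophil markers were at 0.180% to 1.98% of theirs.

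**Figure D2:**
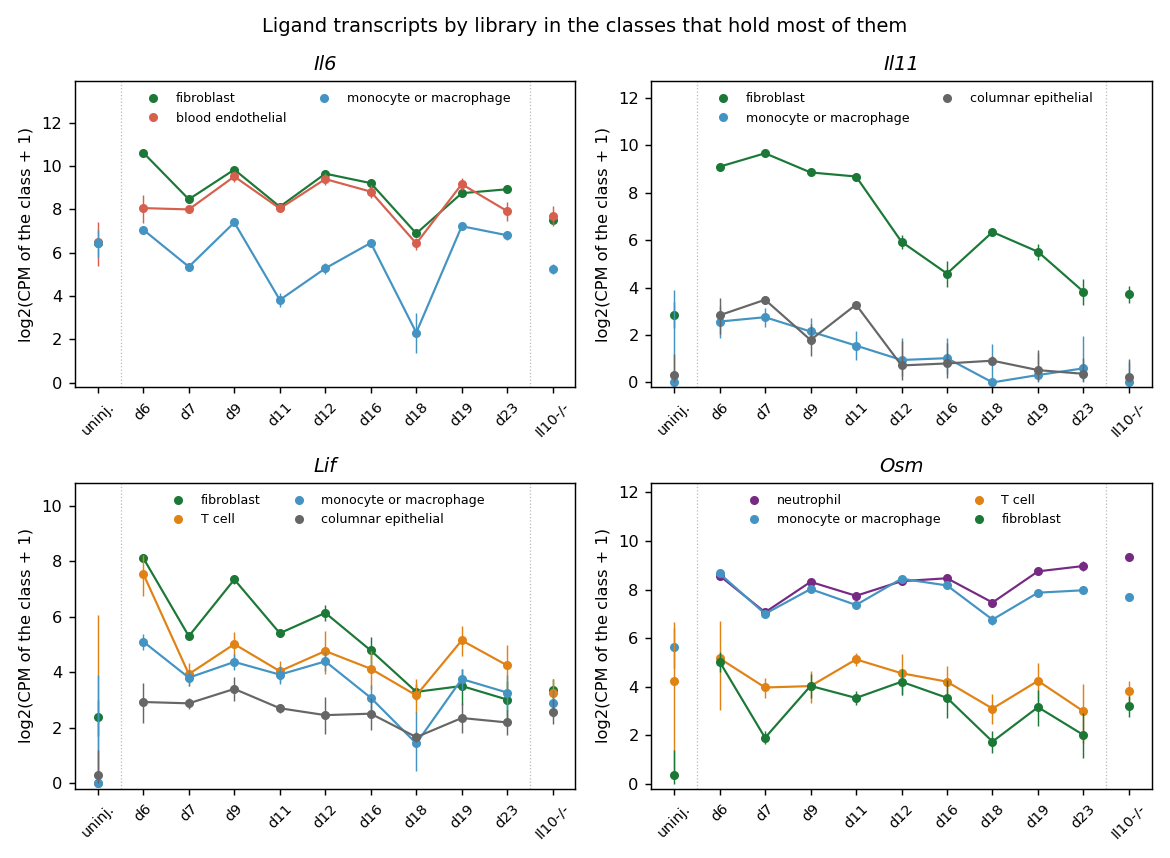
Ligand levels by library, as log2(CPM of the class + 1), for classes named in each panel; vertical lines are exact Poisson 95% intervals and lines join the 9 DSS libraries by day, with the uninjured and Il10-/- libraries apart. Fibroblast Il11 is high on days 6 to 11 and lower from day 12, fibroblast and macrophage Il6 dips on days 7, 11 and 18, and Osm in neutrophils and in monocytes or macrophages dips on the same days.

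Within the fibroblasts, Il11 and Lif came mostly from different types. The authors' deposited names mark 2 large types, Adamdec1/Bmp4 fibroblasts (3103 cells, median 7496 UMIs) and Pi16/Pcolce2 fibroblasts (4316 cells, median 5592 UMIs). Adamdec1/Bmp4 cells held 92.7% of fibroblast Il11 UMIs, while Pi16/Pcolce2 cells held 83.8% of Lif and 83.7% of Il6 UMIs. Adamdec1/Bmp4 Il11 stood at 13.1 CPM uninjured, at 1968, 1380, 1128, 642, 153, 28.3, 132, 59.7 and 22.0 CPM on days 6 to 23 in order, and at 30.5 CPM in Il10-/-. In Pi16/Pcolce2 cells Il11 was at 4.43 CPM uninjured, at 214, 61.2, 63.7, 159, 35.8, 16.4, 14, 25.9 and 7.97 CPM, and at 7.24 CPM in Il10-/-. Adamdec1/Bmp4 was higher in 11 of 11 libraries. These types were defined from the same counts, so the differences between them are given as counts of libraries with no p.

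Lif and Il6 ran the other way. Pi16/Pcolce2 Lif stood at 3.69 CPM uninjured, at 340, 63.7, 249, 82.8, 86.5, 24.6, 15.3, 9.54 and 9.57 CPM on the DSS days in order, and at 10.1 CPM in Il10-/-. Adamdec1/Bmp4 Lif lay between 2.93 and 32.1 CPM over the 11 libraries and was the higher of the pair in 3 of 11. Pi16/Pcolce2 Il6 reached 1919 CPM on day 6 and 1394 CPM on day 9 from 87.4 CPM uninjured. Il6 was lower in Adamdec1/Bmp4 cells in 11 of 11 libraries, with a range of 60.5 to 263 CPM there. In single cells of day 7, 675 of 2033 fibroblasts held an Il11 UMI, 252 a Lif UMI and 106 both. On day 6, 185 of 358 fibroblasts held Il6, as did 70 of the 78 with Lif.

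**Figure D3:**
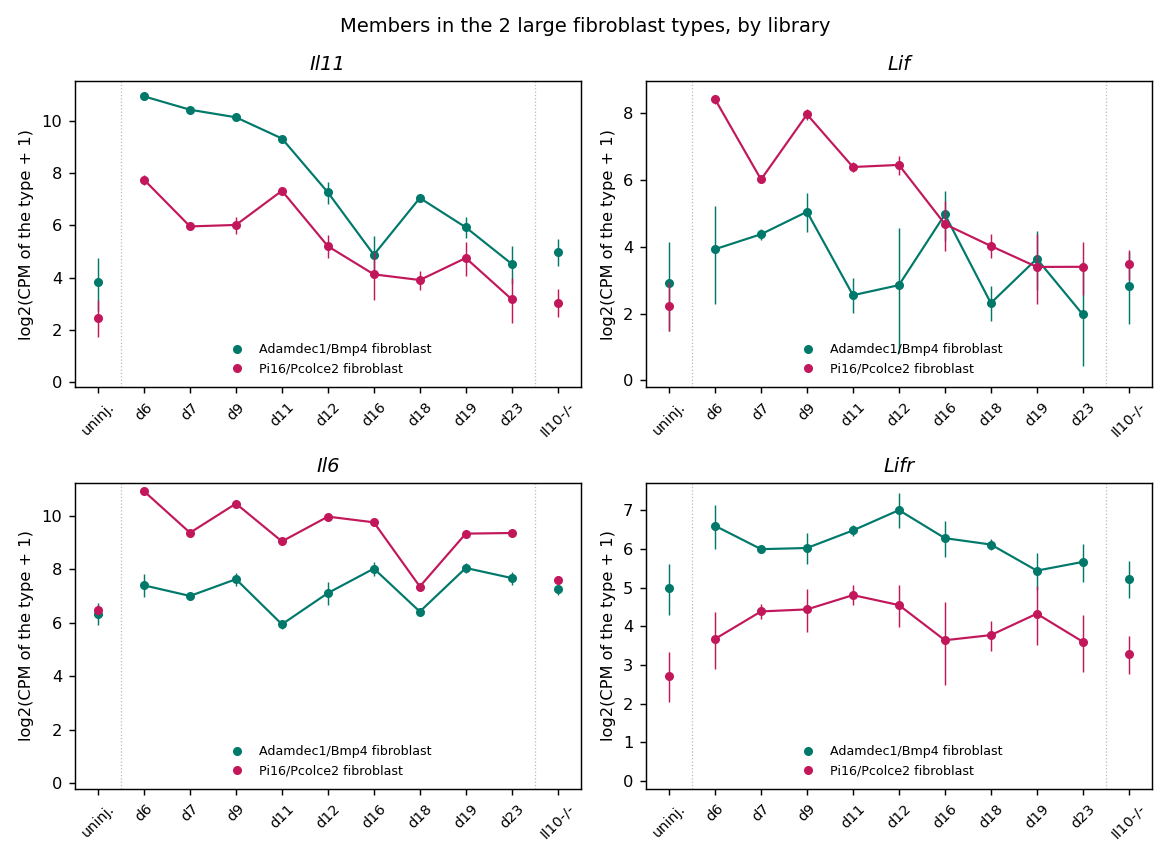
Il11, Lif, Il6 and Lifr in the 2 large fibroblast types by library, as log2(CPM of the type + 1), with exact Poisson 95% intervals. Il11 and Lifr are higher in Adamdec1/Bmp4 cells in 11 of 11 libraries, Il6 is higher in Pi16/Pcolce2 cells in 11 of 11, and Lif is higher in Pi16/Pcolce2 cells in 8 of 11.

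The receptor chains also divided the 2 types. Lifr, which receives Lif, was higher in Adamdec1/Bmp4 cells in 11 of 11 libraries, with medians of 64.2 and 12.7 CPM. Il6st was lower there in 11 of 11 (medians 229 and 360 CPM), and Il11ra1 was lower in all 9 DSS libraries but not in the other 2 (medians over 11 libraries 156 and 229 CPM). Osmr was higher in 5 of 11 (medians 119 and 123 CPM), so the types did not separate on it. Il6ra was higher in Adamdec1/Bmp4 cells in 10 of 11, with medians of 50.5 and 37.6 CPM. Socs3 was higher in Adamdec1/Bmp4 cells in 11 of 11 libraries (medians 554 and 438 CPM).

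Il6st, the shared chain, was present at the highest median in blood endothelial cells, at 560 CPM (range 359 to 866), followed by lymphatic endothelial cells at 407 CPM, fibroblasts at 307 CPM and myofibroblasts at 223 CPM. The endothelial classes were not separated (adjusted exact permutation p = 0.0907), and fibroblasts exceeded myofibroblasts in 10 of 11 libraries (adjusted exact permutation p = 0.0126). In fibroblasts Il6st stood at 186 CPM uninjured, at 425, 307, 450, 325, 365, 327, 273, 299 and 271 CPM on the DSS days in order, and at 184 CPM in Il10-/-. All 9 DSS libraries lay above both other libraries. The highest ratio to uninjured was 2.42 on day 9 (95% counting interval 2.19 to 2.69). The endothelial cells that the authors name by Selp and Sele had Il6st at 1138, 1755 and 1707 CPM on days 7, 11 and 18, the 3 libraries with at least 20 of them, against 311, 388 and 378 CPM in the other blood endothelial cells. All 3 are batch C, so no frozen library bears on this.

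Osmr, the private chain of the oncostatin M receptor, was highest in blood endothelial cells at a median of 224 CPM (range 102 to 336). Lymphatic endothelial cells followed at 178 CPM and fibroblasts at 126.5 CPM, each step held in 8 of 8 libraries (adjusted exact permutation p = 0.0335 for both). Fibroblasts and myofibroblasts were not separated (84.1 CPM in the second, adjusted exact permutation p = 0.145). Fibroblast Osmr stood at 51.7 CPM uninjured, at 157, 126.5, 146, 116, 139, 128, 96.9, 137 and 117 CPM on the DSS days in order, and at 66.8 CPM in Il10-/-. The 9 DSS libraries did not overlap the uninjured or the Il10-/- library, and the day 6 ratio was 3.04 (95% counting interval 2.48 to 3.72). With 1 library against 9, an exact permutation test cannot go below p = 0.2.

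Lifr was highest in blood endothelial cells, at a median of 122 CPM, and exceeded fibroblasts there in 11 of 11 libraries (median 37.1 CPM, adjusted exact permutation p = 0.0110). Endothelial Lifr was at 179 CPM uninjured, above all 9 DSS libraries (70.3 to 173 CPM). That order rests on 1 uninjured library with 43 such cells and was not tested. Fibroblast Lifr had the opposite order, with 10.5 CPM uninjured, 27.7, 44.4, 37.1, 59.1, 44.0, 40.0, 44.0, 31.2 and 25.4 CPM on the DSS days in order, and 14.8 CPM in Il10-/-. The 9 DSS libraries lay above both other libraries, and the day 11 ratio was 5.65 (95% counting interval 4.01 to 8.20). Dendritic cells had a median Lifr of 110 CPM over 5 libraries (43.7 to 201), though their markers were weak. The Selp/Sele endothelial cells had Lifr at 267, 241 and 351 CPM on days 7, 11 and 18, against 120, 57.1 and 97.2 CPM in the other blood endothelial cells.

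Il6ra and Il11ra1, the private receptors, differed in where they lay. Il6ra was at a median of 64.9 CPM in monocytes or macrophages and 43.1 CPM in fibroblasts, the first higher in 11 of 11 libraries (adjusted exact permutation p = 0.0110). Fibroblasts and neutrophils (34.1 CPM) were not separated (adjusted exact permutation p = 0.572). Neutrophil Il6ra was at 61.7, 59.7, 21.9, 43.8, 32.2, 36.0, 89.9, 23.2 and 21.6 CPM on the DSS days in order and at 17.9 CPM in Il10-/-. Enteroendocrine cells had Il6ra at 60.3 and 69.8 CPM in the 2 libraries with at least 20 of them. Il11ra1 was at a median of 198 CPM in fibroblasts and 96.1 CPM in myofibroblasts, higher in the first in 11 of 11 libraries (adjusted exact permutation p = 0.0110). Fibroblast Il11ra1 ranged from 130 to 262 CPM, and the uninjured library (158 CPM) and the Il10-/- library (205 CPM) lay inside the DSS range.

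Joint detection of 2 chains in a cell was counted, which does not bound the receivers, since a soluble interleukin 6 receptor can serve cells with gp130 alone. An Osmr and an Il6st UMI were found together in 44.7% of blood endothelial cells, 40.2% of lymphatic endothelial cells and 34.3% of fibroblasts, against 1.25% of columnar epithelial cells and 0.181% of monocytes or macrophages. Il11ra1 and Il6st were found together in 43.8% of fibroblasts and 11.3% of blood endothelial cells, and Lifr and Il6st in 32.7% of blood endothelial cells and 15.6% of fibroblasts. Il6ra and Il6st together were in 19.9% of fibroblasts and 3.79% of monocytes or macrophages. Joint detection falls steeply with depth. Thinned to 500 UMIs, Osmr with Il6st was in 3.17% of blood endothelial cells, 0.858% of fibroblasts and 0.00885% of columnar epithelial cells.

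Columnar epithelial cells held little Osmr when uninjured and more in each DSS library and in the Il10-/- library. Osmr was 2 UMIs there, or 0.463 CPM, in the uninjured library, then 13.8, 14, 5.65, 2.85, 3.21, 8.17, 2.67, 7.58 and 6.30 CPM on the DSS days in order, and 9.33 CPM in Il10-/-. The ratio to uninjured was 30.3 on day 7 (95% counting interval 8.33 to 251) and 20.2 in Il10-/- (5.32 to 171). The authors' Car4/Ly6g colonocytes held Osmr at 0 uninjured, at 34.4, 18.1, 21.5, 10.3, 5.80, 22.9, 4.93, 19.6 and 19.0 CPM on the DSS days and at 21.0 CPM in Il10-/-. In the crypt type that the authors number Crypt-2, Osmr ranged over 1.34 to 5.35 CPM with a median of 2.29 CPM. Osmr in the epithelium was above that of the uninjured library in 9 of 9 DSS libraries, at levels far under those of the stroma.

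Among classes with at least 20 cells in a library, Socs3, which STAT3 induces, was high in vessels, stroma and myeloid cells. Its medians were 637 CPM in blood endothelial cells, 557 CPM in myofibroblasts, 473 CPM in fibroblasts and 440 CPM in neutrophils. Blood endothelial cells exceeded myofibroblasts in 10 of 11 libraries (adjusted exact permutation p = 0.0207), and the next pairs were not separated (adjusted exact permutation p = 0.893 and 0.785). In fibroblasts Socs3 was at 624 CPM uninjured, at 311, 667, 369, 473, 389, 438, 629, 412 and 640 CPM on the DSS days in order, and at 566 CPM in Il10-/-. Only 3 of 9 DSS libraries exceeded the uninjured one, and the day 6 ratio was 0.498 (95% counting interval 0.450 to 0.552). In blood endothelial cells 1 of 9 DSS libraries exceeded the uninjured library, which was at 997 CPM. Lymphatic endothelial Socs3 was lowest in the uninjured library, at 166 CPM, and was at 362 to 846 CPM in the 9 DSS libraries, of which 3 held under 20 such cells.

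In columnar epithelial cells Socs3 was low when uninjured and higher in each DSS library and in the Il10-/- library. It stood at 10.4 CPM uninjured, at 51.6, 151, 56.5, 48.1, 30.5, 38.1, 25.6, 33.4 and 23.2 CPM on the DSS days in order, and at 60.4 CPM in Il10-/-. All 9 DSS libraries and the Il10-/- library lay above the uninjured one, with ratios of 14.6 on day 7 (95% counting interval 10.9 to 20) and 5.81 in Il10-/- (4.25 to 8.11). Car4/Ly6g colonocytes held Socs3 at 5.86 CPM uninjured and at 30.1 to 168 CPM in the DSS libraries, and Crypt-2 cells at 17.1 CPM uninjured and at 20.9 to 150 CPM in the DSS libraries. A Socs3 UMI was found in 25.4% of columnar epithelial cells (2.59% thinned to 500 UMIs) and in 8.99% of plasma cells (0.662% thinned, median 12892 UMIs).

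**Figure D4:**
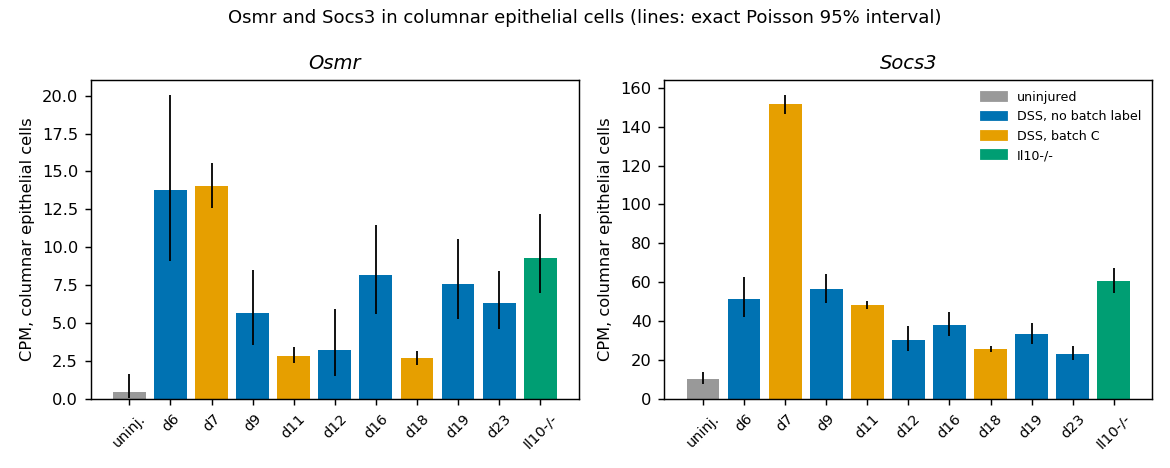
Osmr and Socs3 in columnar epithelial cells by library, as CPM on linear axes from 0, with exact Poisson 95% intervals; colours mark the uninjured, DSS without a batch label, batch C DSS and Il10-/- libraries. The uninjured bar is the lowest in both panels, and Socs3 is highest on day 7 at 151 CPM.

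The 9 DSS libraries allow a test of change with time. Counts summed per library and class were fitted with day and batch label by edgeR's quasi-likelihood test, with Benjamini-Hochberg adjustment over all genes tested and calls at an adjusted p under 0.05. Slopes are in log2 units per 10 days, and n is 9 libraries unless stated. In fibroblasts 4 of 10 genes fell and none rose, where 4.65% of all genes were called. Il11 fell by 3.33 ± 0.46 (SE, adjusted p = 0.0133), Lif fell by 3.04 ± 0.29 (adjusted p = 0.00147), Il6 fell by 1.16 ± 0.14 (adjusted p = 0.000939) and Il6st fell by 0.44 ± 0.09 (adjusted p = 0.0185). Osmr had a slope of -0.31 ± 0.09 (adjusted p = 0.0698) and Socs3 of 0.32 ± 0.14 (adjusted p = 0.212). The Il11 call was lost without day 6 (adjusted p = 0.0592) and without day 18 (0.0695), and within the 6 libraries that carry no batch label (slope -3.40, 0.0881), in a range of 1.39e-09 to 0.0881 over 16 alternatives; the Il6st call was lost without day 6, 9, 18, 19 or 23 in turn, up to an adjusted p of 0.355 over 16. The Il6 and Lif calls were lost only where the batch term was left out (adjusted p = 0.556 and 0.0611). Each library is a pool, so these p-values measure the spread between pools around a straight line.

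In monocytes or macrophages 5 of 9 tested genes fell and none rose, against a background of 12.4%. Osm fell by 0.38 ± 0.11 (adjusted p = 0.0364), Lif fell by 1.27 ± 0.26 (0.0114), Il6ra fell by 0.40 ± 0.10 (0.0189), Lifr fell by 0.80 ± 0.16 (0.00662) and Il11 fell by 3.01 ± 0.49 (0.00211). Lifr and Il11 kept the call in 16 of 16 alternatives. The Osm call was lost in 8 of 16, among them without day 6, 12, 16, 18, 19 or 23, with adjusted p from 0.0141 to 0.830. The Lif call was lost without day 6 (adjusted p = 0.0601; 0.000186 to 0.212 over 16) and the Il6ra call without day 6 (0.128) or day 23 (0.0788; 0.0104 to 0.128 over 16), and both were lost without the batch term. Il11 was at 0% to 4.46% of the fibroblast level here, where fibroblast markers were at 0.149% to 0.807% of theirs, and 3 of 5 tested fibroblast markers fell in this class with a median slope of -1.13. The part of fibroblast RNA in the macrophage Il11 was not tested.

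In columnar epithelial cells 1 of 10 genes fell, against a background of 0.229%, and it was Il11 (-3.17 ± 0.41, adjusted p = 0.0197). That call was lost without day 16 (adjusted p = 0.0606) or day 18 (0.184), within 5.51e-07 to 0.184 over 15 alternatives. None of the 5 tested fibroblast markers was called in this class, and their median slope was -1.23. Socs3 had a slope of -1.19 ± 0.36 (adjusted p = 0.199), Osmr of -0.93 ± 0.51 (0.470) and Lif of -1.04 ± 0.26 (0.123). In neutrophils 0 of 8 tested genes was called (1 at an unadjusted p under 0.05, 1 by DESeq2; background 2.61%), with Osm at -0.04 ± 0.15 (adjusted p = 0.916). In blood endothelial cells edgeR called 0 of 5 (1 unadjusted, 1 by DESeq2; background 1.30%), and Socs3 had a slope of 0.77 ± 0.21 (adjusted p = 0.0768).

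In the sum of all cells of a library, 8 of 10 genes fell and none rose, where 13.1% of all genes were called. The 2 that were not called were Osmr (-0.73 ± 0.27, adjusted p = 0.0954) and Il11ra1 (-0.34 ± 0.16, 0.177). Those sums mix the makeup of the library with the level in a class: 4 of 5 neutrophil markers and 3 of 6 fibroblast markers fell in them as well. Leaving out 1 library at a time moved the count to between 3 (without day 18) and 8, with 5 without day 23. In B cells 1 of 4 tested genes was called, Osm at -1.76 (adjusted p = 0.0259; background 0.876%), a call lost in 9 of 16 alternatives, among them without day 6, 12, 16, 18, 19 or 23 (adjusted p 0.00962 to 0.9995). B cell Osm was at 0% to 12.1% of the neutrophil level, where neutrophil markers were at 0.243% to 1.90% of theirs. In B cells 1 of 4 tested neutrophil markers fell, with a median slope of -2.29. The part of RNA from other cells in the B cell Osm was not tested. No gene was called in plasma cells (0 of 5, 0 unadjusted, DESeq2 0 of 3, background 1.47%, 7 libraries). The same held for T cells (0 of 6, 2 unadjusted, DESeq2 0 of 3, background 0.217%) and for myofibroblasts (0 of 5, 1 unadjusted, DESeq2 0 of 5, background 0%).

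**Figure D5:**
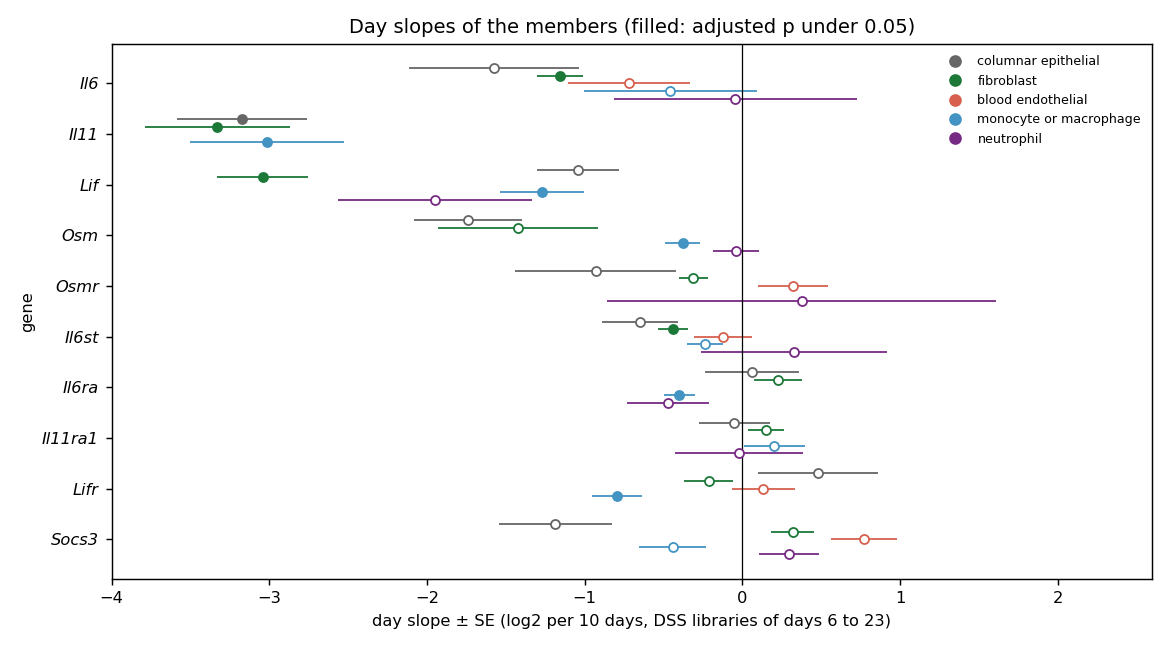
Day slopes of the 10 genes with their standard errors, in log2 units per 10 days, for 5 classes over the 9 DSS libraries; filled points passed an adjusted p of 0.05 in edgeR's quasi-likelihood test. The filled points all lie left of 0, with Il11 near -3 in 3 classes and Lif near -3 in fibroblasts.

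Fits within each fibroblast type were added after the data were seen. In Adamdec1/Bmp4 fibroblasts (background 6.26%) Il11 fell by 3.85 ± 0.51 (adjusted p = 0.00856), and Il11ra1 rose by 0.63 ± 0.13 (adjusted p = 0.00733, lost without day 18 at 0.0940, range 0.00782 to 0.0940 over 10 alternatives). In Pi16/Pcolce2 fibroblasts (background 2.56%) Il6 fell by 1.20 ± 0.18 (adjusted p = 0.00201) and Lif fell by 3.17 ± 0.42 (adjusted p = 0.0150). The Lif call there was lost without day 6, 18 or 23 (adjusted p 6.47e-08 to 0.0887 over 10 alternatives). Il6 in Adamdec1/Bmp4 cells had a slope of 0.07 ± 0.25 (adjusted p = 0.956) and Il11 in Pi16/Pcolce2 cells of -2.64 (adjusted p = 0.113). Whether the slopes differ between the types was not tested.

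The slopes of 4 classes were set against those of fibroblasts in models with a class-by-day term. Of 40 differences, 1 passed: Socs3 in monocytes or macrophages had a slope 0.82 ± 0.17 lower than in fibroblasts (difference -0.82, adjusted p = 0.0150; background 2.88%). Socs3 alone gave -0.44 in the first class and 0.32 in the second, neither of them called. The call was lost without day 6 (difference -0.91, adjusted p = 0.0529; 0.00234 to 0.0529 over 11 alternatives). No difference was called for columnar epithelial cells (background 0.0839%), where Lif gave 1.82 (adjusted p = 0.0899) and Socs3 -1.43 (0.0654), nor for blood endothelial cells (background 1.09%) or neutrophils (background 1.53%). Within the 6 DSS libraries that carry no batch label, 8 of 40 were called. The share of all genes called in those fits is not given here, so the 8 cannot be set against it.

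Several of these genes differed between the batches. The batch coefficient of the same fits, added after the data were seen, is batch C minus the other DSS libraries in log2 units. In fibroblasts 5 of 10 genes were called, all lower in batch C, against a background of 15.3%. They were Il6 (-2.15 ± 0.19, adjusted p = 3.94e-06), Lif (-1.77 ± 0.31, 0.00641), Osmr (-0.57 ± 0.11, 0.00230), Il6st (-0.54 ± 0.11, 0.00428) and Il11ra1 (-0.62 ± 0.13, 0.00514), while Il11 had 0.82 (0.306). All 5 stayed called without any 1 library. In monocytes or macrophages 3 of 9 were called, near the background of 25.4%. They were Osm at -1.46 ± 0.13 (adjusted p = 3.44e-06), Lif at -1.15 (0.0149) and Il6 at -2.84 (0.0398). In neutrophils 3 of 8 were called (background 11.2%), Osm at -1.50 ± 0.18 (4.99e-05), Socs3 at -0.92 (0.0179) and Lif at -1.80 (0.0416). In columnar epithelial cells 1 of 10 was called, near the background of 10.4%, and it was Il11, higher in batch C by 1.45 (0.0374). In blood endothelial cells 1 of 5 tested was called (background 11.3%), Il6 at -1.67 (0.0392). The last 2, Il6 in monocytes or macrophages and Lif in neutrophils each lost the call without any of 6 or 7 single libraries, up to an adjusted p of 0.171; Lif in monocytes or macrophages lost it without day 7 (0.0657), and Socs3 in neutrophils without day 11 or 18 (up to 0.130).

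Genes on the signalling route were read from fixed lists. Of 18 genes known to respond to STAT3, 6 of 18 fell in fibroblasts (4.65% of all genes called), with a list median of -0.56 against 0.00 for all genes: Saa3 (-2.80), Reg3g (-2.74), Lcn2 (-2.62), Hif1a (-0.74), Il4ra (-0.69) and Mcl1 (-0.41). In columnar epithelial cells 3 of 18 fell (0.229% of all genes called), with a median of -0.70 against 0.01: Timp1 (-2.34), Lrg1 (-2.22) and Pim1 (-0.83). In monocytes or macrophages 7 of 18 fell (median -0.48, background 12.4%), led by Lrg1 (-1.67). In neutrophils 5 of 18 fell (median -0.42, background 2.61%), led by Reg3g (-3.95), and in blood endothelial cells 3 of 15 tested (median -0.63, background 1.30%), led by Saa3 (-2.99). None rose in these 5 classes. Reg3g, an antibacterial lectin of the epithelium, was at 0% to 15.3% of its columnar level in fibroblasts and at up to 107% in neutrophils, where epithelial markers were at 1.24% to 5.25% and 2.26% to 12.5% of theirs. Lcn2, an iron-binding protein of neutrophil granules and inflamed epithelium, was at a median of 297% of its columnar level in fibroblasts and 7379% in neutrophils. In fibroblasts the 5 neutrophil markers had slopes below 0 (median -2.10) with none of them called. Saa3 in fibroblasts was at a median of 6492% of its columnar level. In blood endothelial cells 1 of 2 tested fibroblast markers fell, with a median slope of -1.53. The part of epithelial RNA in the Reg3g values and of neutrophil RNA in the fibroblast Lcn2 was not tested. Nor was the part of fibroblast RNA in the endothelial Saa3.

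The kinases, STATs and adaptors that relay the signal gave 1 of 11 calls in fibroblasts, where Stat3 fell by 0.59 and 4.65% of all genes were called. In monocytes or macrophages, where 12.4% of all genes were called, 5 of 11 fell: Gab1 (-1.24), Stat3 (-0.77), Stat5a (-0.63), Jak2 (-0.62) and Jak1 (-0.43). None of 11 was called in columnar epithelial cells, none of 10 tested in neutrophils and none of 6 tested in blood endothelial cells. Of 7 feedback inhibitors other than Socs3, Ptpn2 (-0.90) and Ptpn1 (-0.47) fell in fibroblasts, and Cish (-0.63), Ptpn1 (-0.51) and Ptpn2 (-0.42) in monocytes or macrophages. Of the 12 other ligands and receptors of the family, 3 could be tested in fibroblasts and 4 in monocytes or macrophages, and Clcf1, a ligand of the ciliary neurotrophic factor receptor, fell in both (-1.23 and -0.66).

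The genes whose pattern was most like each ligand were ranked by Pearson's r on log2(CPM + 5) over 117 sums of library and class, among 12904 genes, with no test since the sums share libraries and depth. For Il6 they included Procr (0.852), Cxcl1 (0.845), Vcam1 (0.815) and Itga5 (0.796). For Il11 they were Mmp10 (0.884), Mmp3 (0.863), Cemip (0.861), Ces1g (0.848) and Serpina3m (0.847). For Lif the likeness was weaker, with Ptx3 (0.611), Bmp7 (0.610), Saa3 (0.610), Mmp10 (0.592) and Il1rl1 (0.590). For Osm they were Nlrp3 (0.887), Fcgr3 (0.877), Hk3 (0.877), Il1b (0.873) and Clec4e (0.864).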

How the data were processed

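The values are raw UMI counts as the authors deposited them, from 10x 3′ libraries; the submitters' processing notes name Cell Ranger 3.0.0 and mm10. The authors' filters on cells and their treatment of doublets are not given in the sources used here; no doublet caller was run, and the lowest cell held 490 UMIs. Cell types came from the deposited cell table and were joined into 16 classes. Of 14 libraries in the matrix, 3 matched no sample and were not used (12621 of 68224 cells; 3 unused per-sample columns), and 597 rows that name no gene (0.517% of UMIs) were dropped.

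Counts were summed per library and class with at least 20 cells and given as CPM. Day trends used edgeR 4.0.16 in R 4.3.3 (TMM, filterByExpr, robust quasi-likelihood, terms day and batch), with DESeq2 1.42.0 as an alternative, and were tested on simulated data. Levels of adjacent classes were compared with a pseudocount of 1 CPM, and exact Clopper-Pearson intervals were computed for shares of cells. Total UMIs per library, 7922350 to 87012379, set the precision, so low counts carry an exact Poisson interval; intervals cover counting error only. Named genes are the 10 chosen by symbol, the members of the fixed lists that passed the test and the 5 genes most like each ligand among those with at least 500 UMIs, of which 1 is not reported here. The genes and lists were chosen with earlier results of these data known. Promoter windows are from RefSeq, GRCm38.p6. Effects of alternative scalings, filters, tools and left-out libraries are in the closing section.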

Additional observations from a re-analysis of the deposited data

Results flagged for a closer look

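The day slope of Socs3 differed between 2 classes. It was 0.82 lower on the log2 scale per 10 days in monocytes or macrophages than in fibroblasts (difference -0.82, with slopes of -0.44 and 0.32), by the class-by-day term of edgeR's quasi-likelihood fit over the 9 DSS libraries (adjusted p = 0.0150, called without any library but day 6). Socs3 stood at 396 CPM on day 6 and 372 CPM on day 23 in monocytes or macrophages, against 311 and 640 CPM in fibroblasts. These 2 days do not stand for the fitted slopes. In monocytes or macrophages Socs3 was highest on day 7 (524 CPM) and lowest on day 18 (205 CPM), both batch C. In fibroblasts it was highest on day 7 (667 CPM). No group has more than 1 library, so no group could be searched for a sample that stands apart from its replicates.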

How the results depend on the processing

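Classes were paired within libraries, but groups could not be paired with each other because each group is 1 library and the labels give no replicate numbers. The number of the 10 genes called by day moved with the model more than with the scaling. Without the batch term the counts were 0 in columnar epithelial cells, 1 in fibroblasts, 2 in monocytes or macrophages, 1 in all cells and 0 in the further classes. With no filter on low counts they were 2, in columnar epithelial, blood endothelial and neutrophil sums alike, and 3 in the further classes. DESeq2 called 4 in columnar epithelial cells, 1 in blood endothelial cells and 1 in neutrophils. The 6 DSS libraries with no batch label gave 5 in fibroblasts, 1 in blood endothelial cells, 0 in the further classes and 8 slope differences, and cells with at least 1000 UMIs gave 1 and 0 in blood endothelial cells and the further classes; RLE size factors gave 2 slope differences. Leaving out each DSS library gave 0 to 3 calls in columnar epithelial cells, 2 to 6 in fibroblasts, 0 to 1 in blood endothelial cells, 2 to 5 in monocytes or macrophages, 0 to 1 in neutrophils, 3 to 8 in all cells, 0 to 1 in the further classes and 0 to 9 slope differences. For the results added after the data were seen (batch coefficients, fibroblast types and further classes), the same gave 0 to 4 batch calls in columnar epithelial cells, 5 to 6 in fibroblasts, 0 to 1 in blood endothelial cells, 2 to 3 in monocytes or macrophages and 1 to 4 in neutrophils, and 1 to 3 day calls in Adamdec1/Bmp4 and 1 to 6 in Pi16/Pcolce2 fibroblasts. The share of all genes called under each alternative is not given here, so these counts cannot be set against it. The causes were not tested.

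Of 483 alternatives run on 37 single slopes and differences that were called, 386 kept the call, 97 lost it and 0 changed sign. Thinning to 1000 in place of 500 UMIs gave shares of 8.04% for Il11, 2.45% for Lif and 17.5% for Il6 in fibroblasts, 17.7% and 19.4% for Osm in neutrophils and in monocytes or macrophages, and 4.84% for Socs3 in columnar epithelial cells, so these shares moved with depth. TMM factors moved 19 of 503 ratios to uninjured across 1. Of adjacent classes, 25 of 70 pairs passed with at least 50 cells and 20 of 90 with a pseudocount of 10 CPM, against 25 of 90. With 1 uninjured and 1 Il10-/- library, no difference from either could be tested.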
